A study of Mus musculus with 8 samples.

Results

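Single-call FOS regions are the least recurrent part of a map of FOS on the microglial genome. They were selected on measured values. A region was kept where the authors' merged FOS list had a peak there, their IL-33 list had none, the FOS peak name ended in 1, and the centre lay in or within 100 kb of a protein-coding gene body. The number that ends a peak name runs from 1 to 4 and is called the number of calls here. Its range fits a count of the FOS libraries holding the peak, but that reading is an inference. Of 32773 regions in the table, 31473 carried a FOS peak and 12305 were FOS-only with 1 call. Of these, 11441 met the distance limit and 864 lay farther from any coding gene. The comparison group was the 16796 FOS-only regions of 2 to 4 calls under the same limit, called recurrent. As neighbours, regions of 2 to 4 calls that were shared with the IL-33 list counted as recurrent too.

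FOS pairs with a JUN protein to form the transcription factor AP-1, which binds a short, nearly palindromic DNA element and is induced soon after immune cells and neurons are stimulated. The related cAMP response element differs by an added base in its middle and is bound mostly by CREB and ATF proteins. In macrophages and microglia, AP-1 binds mainly at enhancers that the lineage factor PU.1 has opened, and it is also found at promoters. IL-33 is an alarm cytokine of the interleukin-1 family that signals through ST2 and MYD88.

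The regions came from chromatin immunoprecipitation of FOS followed by sequencing, in microglia sorted from the cortex of 4 mice. Every mouse was at postnatal day 30 and had received IL-33 in a cerebral ventricle on 1 side 4 h earlier, and each mouse contributed 1 FOS and 1 input library. The labels state no strain, sex or genotype, and vehicle-injected mice are not part of the analysis. The table holds no value per library, so depth is unknown and no value has an error between mice. Intervals and tests below treat regions as independent and cover counting error only, although all of them come from the same 4 mice.

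For promoters with a RefSeq promoter window, the DNA under a single-call region can be read. These windows are of the same build, GRCm38, and span 250 bases before and 50 after a gene's start. The windows shown first are those of highest score among windows that lay wholly inside a single-call region. A window of 300 bases can lie wholly only inside regions of 302 or 320 bp, and all of those shown lay in 320 bp regions, so the 270 and 274 bp classes could not appear. Alyref encodes an mRNA export factor, Necap1 an endocytosis protein, Prpf3 a splicing factor and Styxl1 a catalytically inactive phosphatase. Capitals mark TGANTCA (called AP-1 letters here, a loose form with any base at N) and the cAMP response element written TGACGTCA. They also mark the ETS core CCGGAA and the GC box motif GGGCGG, on either strand.
Alyref, chr11:120598316-120598615, minus strand: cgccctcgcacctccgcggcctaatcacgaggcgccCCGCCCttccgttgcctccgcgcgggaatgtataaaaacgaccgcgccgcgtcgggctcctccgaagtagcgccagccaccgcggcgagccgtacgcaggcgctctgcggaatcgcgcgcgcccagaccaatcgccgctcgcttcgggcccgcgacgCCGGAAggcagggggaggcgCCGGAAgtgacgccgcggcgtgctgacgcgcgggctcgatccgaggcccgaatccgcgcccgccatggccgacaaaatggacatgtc
Necap1, chr6:122874307-122874606, plus strand: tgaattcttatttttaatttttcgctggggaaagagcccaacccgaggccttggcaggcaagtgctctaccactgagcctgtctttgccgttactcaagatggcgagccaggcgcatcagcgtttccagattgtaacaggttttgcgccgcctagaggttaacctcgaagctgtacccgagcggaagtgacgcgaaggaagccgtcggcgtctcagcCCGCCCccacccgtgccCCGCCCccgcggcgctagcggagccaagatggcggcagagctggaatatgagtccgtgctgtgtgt
Prpf3, chr3:95855704-95856003, minus strand: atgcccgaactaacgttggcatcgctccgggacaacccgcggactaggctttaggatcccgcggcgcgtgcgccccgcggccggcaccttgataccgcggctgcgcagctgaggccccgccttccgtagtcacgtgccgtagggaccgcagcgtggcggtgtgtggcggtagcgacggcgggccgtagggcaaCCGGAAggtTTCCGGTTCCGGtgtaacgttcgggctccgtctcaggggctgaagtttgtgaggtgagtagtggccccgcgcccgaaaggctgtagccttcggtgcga
Styxl1, chr5:135778336-135778635, minus strand: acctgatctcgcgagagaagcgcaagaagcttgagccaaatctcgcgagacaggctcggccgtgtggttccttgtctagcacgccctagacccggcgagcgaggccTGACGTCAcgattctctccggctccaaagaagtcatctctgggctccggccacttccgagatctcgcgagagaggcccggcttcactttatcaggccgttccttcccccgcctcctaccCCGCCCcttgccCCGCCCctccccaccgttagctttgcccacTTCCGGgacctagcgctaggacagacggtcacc

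The regions over these windows scored 40.4 at Alyref, 39.1 at Necap1, 38.3 at Prpf3 and 37.7 at Styxl1. None of the 4 windows held the AP-1 letters, which stood in 4.49% of the windows touched by a single-call region alone and in 7.81% of all windows. ETS letters stood in Alyref, Prpf3 and Styxl1, GC box letters in Alyref, Necap1 and Styxl1, and the cAMP response element in Styxl1. Windows with either element did occur, and the next stretches show the highest-scoring examples with 30 bases on each side, the element in capitals. Phyhd1, Hilpda and Cdip1 carry AP-1 letters under single-call regions scoring 34.3, 33.5 and 32.7, with the form TGAATCA at Hilpda. Snrpa, which encodes a U1 snRNP protein, and Tecpr2, an autophagy gene, carry the cAMP response element under regions scoring 41.2 and 34.6. Between these in score stood the element already shown at Styxl1.
Phyhd1, chr2:30266481-30266547, plus strand: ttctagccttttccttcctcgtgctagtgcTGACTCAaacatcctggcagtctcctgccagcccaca
Hilpda, chr6:29272468-29272534, plus strand: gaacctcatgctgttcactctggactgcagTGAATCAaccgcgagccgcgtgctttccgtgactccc
Cdip1, chr16:4790114-4790180, minus strand: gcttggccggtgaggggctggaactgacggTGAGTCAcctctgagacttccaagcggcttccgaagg
Snrpa, chr7:27196347-27196414, minus strand: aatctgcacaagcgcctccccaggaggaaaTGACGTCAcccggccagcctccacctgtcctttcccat
Tecpr2, chr12:110889103-110889170, plus strand: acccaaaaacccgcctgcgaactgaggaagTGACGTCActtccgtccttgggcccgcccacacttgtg

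Single-call regions came in 4 exact widths. There were 5872 regions of 270 bp (51.3%), 1393 of 274 bp (12.2%), 914 of 302 bp (7.99%) and 3262 of 320 bp (28.5%). Whether each width stands for a mouse is not stated in the labels or headers, so widths are treated as classes of regions and not as libraries. The deposited score, whose scale is not given, ranged from 3.47 to 81.1 with a median of 12.8 and quartiles of 7.85 and 19.0. The median was 12.8 in the 270 bp class and 15.8 in the 320 bp class. It was 11.9 at 302 bp but 6.72 at 274 bp. The 274 bp class was the weakest, with an upper quartile of 11.1 that lay below the median of the 270 bp, 302 bp and 320 bp classes. Score and number of calls come from the same peak calls, so their relation is a description. The lowest scores at 2, 3 and 4 calls were 4.435, 5.7767 and 7.1025, with decimals that averages over calls would give. Whether recurrent scores are such averages was not tested. A single-call score may therefore be an unlike measure wherever the 2 kinds are set side by side. The median was 19.5 at 2 calls, 24.8 at 3 and 35.35 at 4, and 1.80% of single-call regions (206) reached the median of 4-call regions.

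Scores of single-call regions were higher at gene ends. Within 1 kb of either end of a coding gene body, called a gene boundary here, the median was 19.0 in 2646 regions, against 11.2 in 8795 regions farther away. The near and away medians were 18.8 and 11.6 for 270 bp regions, 13 and 6.29 for 274 bp regions, 16.05 and 10.6 for 302 bp regions, and 21.9 and 13.7 for 320 bp regions. Every width class thus had the higher median near boundaries. The gap was 7.8 over all single-call regions and from 5.45 at 302 bp to 8.2 at 320 bp by width, against 5.8 at 2 calls and 4.13 at 3. At 4 calls the order turned, with 33.65 near and 35.9 away. When single-call regions were put into quartiles of score within their width, the share near a boundary rose from 8.29% in the lowest quartile through 13.7% and 24.1% to 46.4% in the highest.

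**Figure D1:**
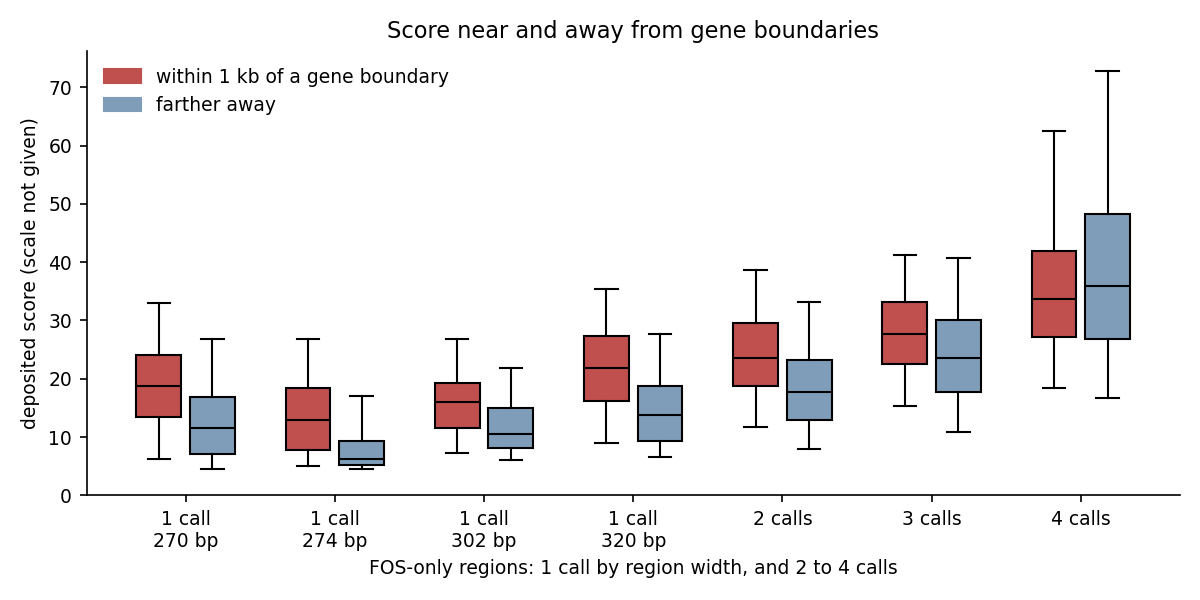
Deposited score (y axis, scale not given) of FOS-only regions within 1 kb of a gene boundary (red) and farther away (blue), for the 4 widths of single-call regions and for 2 to 4 calls. Boxes span the quartiles with the median as a line, and whiskers run from the 5th to the 95th percentile. Medians are higher near boundaries in each single-call width, for example 21.9 against 13.7 at 320 bp, and lower at 4 calls.

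The highest-scoring single-call regions stood beside recurrent ones. Of the 20 regions that were the 5 highest of each width, 9 had a FOS region of 2 to 4 calls, shared with the IL-33 list or not, within 1 kb of their centre. All 20 had one within 10 kb, and 19 within 5 kb. Over all 11441 single-call regions, 495 had one within 1 kb and 3978 (34.8%) within 10 kb. The top region overall scored 81.1 on chromosome 11 at 115188770 to 115189040, inside Tmem104 and 622 bp from a 4-call region scoring 86.2. A further region of the top 20, at 115187179 to 115187481 inside Nat9 with a score of 40.0, lay 2197 bp from that same 4-call region, on the same side of it.

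Rbpj, which encodes the DNA-binding effector of Notch signalling, also held a pair of the top 20. Its regions on chromosome 5 at 53588532 to 53588802 (score 70.4) and 53590367 to 53590669 (42.0) flanked a 3-call region scoring 56.7, at 373 and 1478 bp. The second lay 32 bp from an annotated Rbpj start site. In these pairs a recurrent region and single-call regions were listed apart but close by. The first Rbpj region ended at 53588802, and the 3-call region began at 53588838. Whether such neighbours are separate binding sites was not tested.

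Of the remaining top regions, some had a gene of immune function as their nearest gene, and others did not. Tnf, the gene of tumour necrosis factor, held a region scoring 35.3 on chromosome 17 at 35200548 to 35200822, 1448 bp from a 4-call region scoring 45.5. Spi1, which encodes PU.1, had a region scoring 46.6 on chromosome 2 at 91084492 to 91084794, 1548 bp from a 4-call region scoring 67.1. Ifnar2, a chain of the type I interferon receptor, was the nearest gene to a region scoring 67.9 that lay 18010 bp outside it and 617 bp from a 4-call region scoring 90.4. Ccr1, a chemokine receptor gene, was 25307 bp from a region scoring 58.6. Trib1, a pseudokinase gene active in myeloid cells, was 71947 bp from a region scoring 37.3, and a 4-call region scoring 98.0 lay 724 bp from it. Assignment to the nearest gene does not show which gene a distant region acts on.

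Junb, which encodes an AP-1 subunit, was nearest to a region scoring 45.0 on chromosome 8, 474 bp outside the gene. It was the gene's single FOS region, with an IL-33 list region 836 bp away and the nearest recurrent region at 9558 bp. Cflar, the gene of a caspase-8 inhibitor, held a region scoring 57.8, 1234 bp from a recurrent region shared with the IL-33 list. Nek7, whose kinase takes part in NLRP3 inflammasome assembly, held a region scoring 47.2, 3248 bp from a 4-call region. The rest of the 20 lay at Serinc3 (67.9), Chd2 (66.2), Arnt2 (56.5), Cdt1 (47.5), Cdkn2aipnl (43.5), Eif4a1 (40.1), Ddx5 (38.8) and Ptprj (35.8). Of all 20, 11 were inside a gene body and 4 within 1 kb of a gene boundary.

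The score of single-call regions fell step by step with distance from a recurrent region. The median was 21.9 in the 89 regions within 500 bp and 19.8 in the 406 regions between 500 bp and 1 kb. It was 18.8 between 1 and 2 kb, 18.2 between 2 and 5 kb, 13.8 between 5 and 10 kb, and 11.8 between 10 and 50 kb. The 2848 regions more than 50 kb from any recurrent region, 24.9% of all, had a median of 8.6. The smallest distance between centres was 299 bp. The order held for the ends of the scale within each width: the median was 20.9 within 1 kb and 10.1 beyond 10 kb for 270 bp regions, 18.4 and 6.07 for 274 bp regions, 18 and 10.6 for 302 bp regions, and 22.3 and 14.5 for 320 bp regions.

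**Figure D2:**
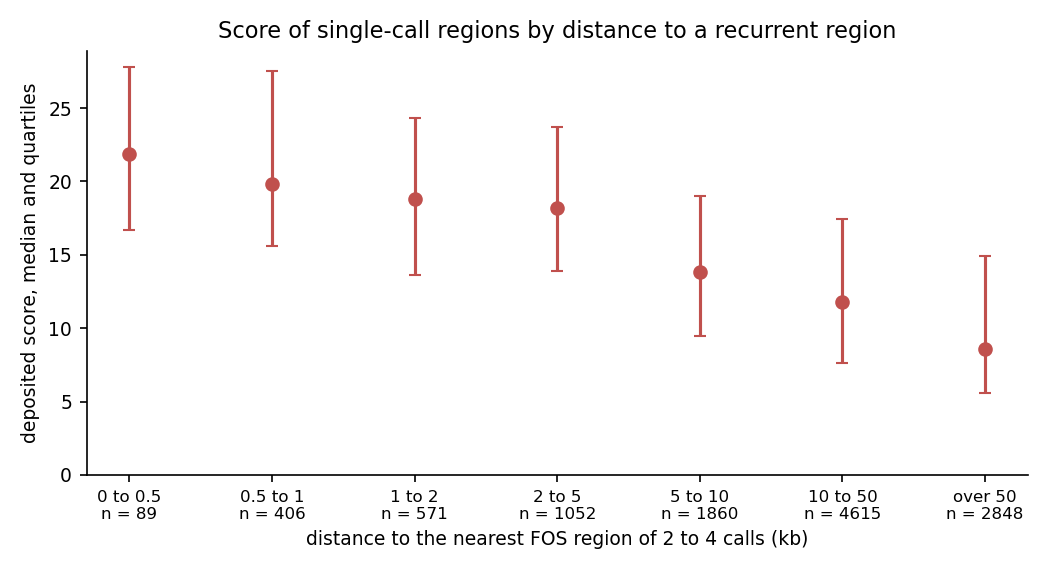
Deposited score (y axis; points are medians, bars the quartiles) of single-call regions by distance between their centre and the nearest FOS region of 2 to 4 calls (x axis, kb). The median goes from 21.9 within 0.5 kb to 8.6 beyond 50 kb.

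Single-call regions had a recurrent FOS region nearby less often than recurrent regions did. A recurrent FOS region lay within 10 kb of 34.8% of them (95% interval 33.9 to 35.7), against 49.7% of recurrent regions that had another within 10 kb. The difference was -14.9 percentage points (95% interval -16.1 to -13.8, adjusted p = 1.16e-136, two-sided Fisher's exact test, Benjamini-Hochberg over 4 location tests). Call number defines both the compared groups and the counted neighbours. The comparison thus describes only how call numbers lie together along the genome. With only the members at or above the median score of their width the difference was -1.98 points (adjusted exact p = 0.00963). Recurrent regions were not filtered by score there, and the members' share rose with score, so the filter itself narrows the difference. The share rose with the number of calls, from 42.1% at 2 calls through 46.7% at 3 to 59.5% at 4. The median distance to a recurrent region was 17718 bp for single-call and 10104 bp for recurrent regions. To a FOS region of any call number it was 10221 bp for single-call regions. Among widths, the 274 bp class stood lowest at 23.1%, below the 38.0% of the 270 bp, 37.4% of the 302 bp and 33.2% of the 320 bp class (adjusted exact p = 6.11e-26, 5.53e-13 and 7.25e-12 against these). Members of the highest score quartile of their width had a recurrent region within 10 kb in 53.1%, and those of the lowest in 12.7%.

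Regions of the IL-33 list were also rarer around single-call regions. Judging by its column name, that list came from comparing IL-33 with vehicle, and no label or header states its assay. By definition no member overlapped it. An IL-33 list region lay within 10 kb of 4.42% of single-call regions (506, interval 4.05 to 4.82) and 10.03% of recurrent FOS-only regions. That difference was -5.61 points (interval -6.20 to -5.02, adjusted exact p = 4.38e-71). By number of calls the share went from 6.11% at 2 through 8.24% at 3 to 15.3% at 4. Within 1 kb it was 0.542% for single-call regions (62), 0.692% at 2 calls and 3.83% at 4 calls. The widths ranged from 3.09% at 274 bp to 5.14% at 302 bp within 10 kb. Irak2, a MYD88 pathway kinase gene, had its highest single-call region, scoring 33.7, at 399 bp from an IL-33 list region and 1854 bp from a 4-call FOS region.

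How often single-call regions lay at gene boundaries depended on what they were set against. Of them, 23.1% (2646, interval 22.4 to 23.9) were within 1 kb of a boundary, against 25.2% of recurrent regions (difference -2.12 points, interval -3.13 to -1.10, adjusted exact p = 6.39e-05). Recurrent regions were not alike, with 28.3% at 2 calls, 28.8% at 3 and 19.4% at 4. Against 4-call regions alone, single-call regions were therefore the more frequent at boundaries (3.68 points, interval 2.41 to 4.93, adjusted exact p = 1.93e-08). Leaving out the 270 bp width also turned the main difference, to 1.57 points (adjusted exact p = 0.0284). With members at or above the median score of their width the difference was 9.76 points (adjusted exact p = 1.62e-44). That filter was applied to members alone, whose boundary share rose with score, so the filter itself raises the difference. With regions shared with the IL-33 list included the difference was -0.947 points and missed the threshold (adjusted exact p = 0.0796).

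The widths split into pairs by this measure. Near a boundary lay 30.8% of the 320 bp class and 29.3% of the 302 bp class, but 19.6% of the 270 bp and 15.8% of the 274 bp class. Of the 6 pairs of widths, 5 differed, with adjusted p from 7.55e-32 to 0.0011 (two-sided Fisher's exact test, chosen after the data were seen). The exception was 302 against 320 bp (adjusted exact p = 0.394). This was not the order of the median scores, in which the 302 bp class stood below the 270 bp class. The part of the sequencing libraries in the difference was not tested.

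**Figure D3:**
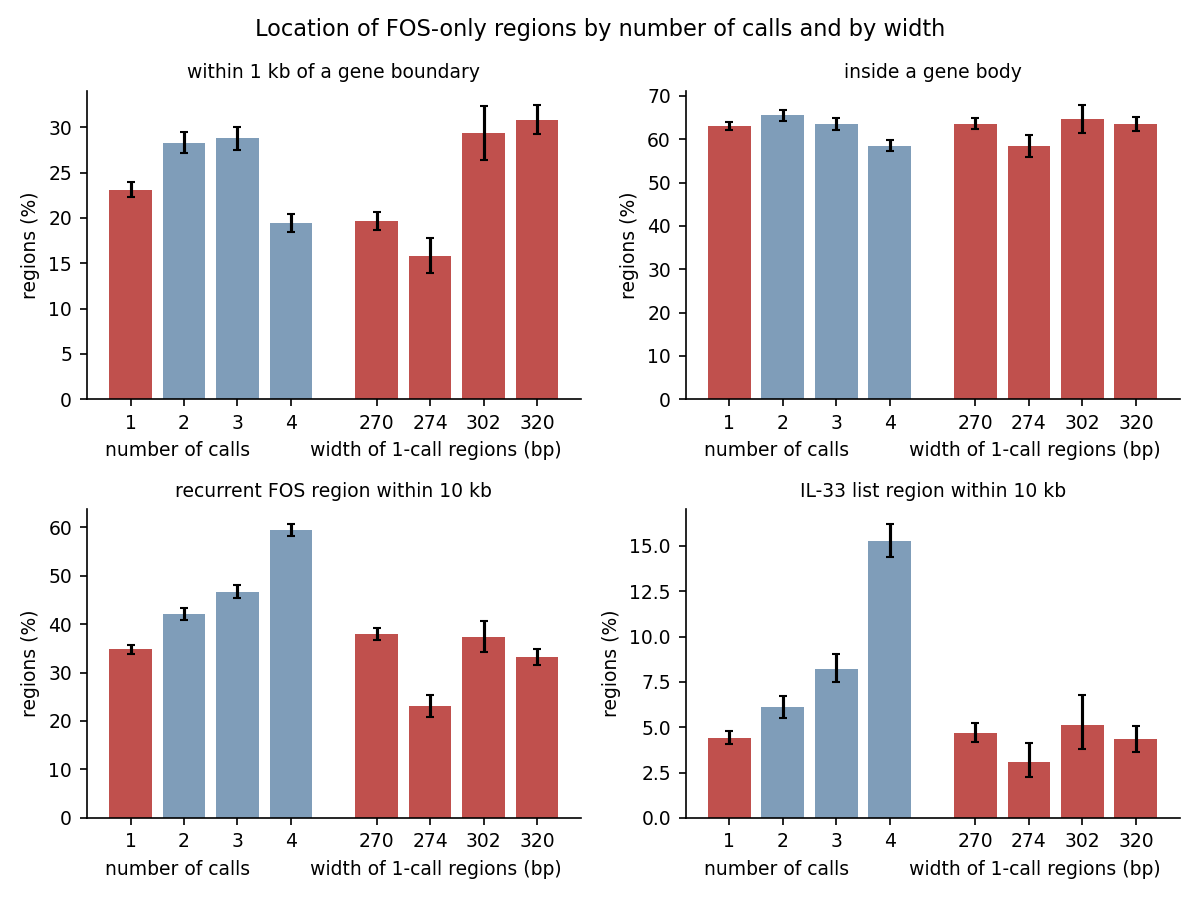
Share of FOS-only regions (y axis, %) with each of 4 locations, by number of calls and, for single-call regions (red), by width. Error bars are exact 95% intervals that cover counting error. The share with a recurrent region or an IL-33 list region within 10 kb is lowest at 1 call, and the share near a boundary is 30.8% at 320 bp and 15.8% at 274 bp.

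Inside gene bodies lay 63.0% of single-call regions (7212) and 62.4% of recurrent ones, a difference of 0.611 points (interval -0.539 to 1.76) that missed the threshold (adjusted exact p = 0.298). It was -2.52 points against 2-call and 4.54 points against 4-call regions (adjusted exact p = 0.00103 and 6.65e-09). Of the rest, 18.6% of all members lay up to 10 kb from a gene body and 18.4% between 10 and 100 kb. The 274 bp class had the largest share in that last zone, at 25.4%.

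Start sites gave a similar order of the call numbers. Starts of RefSeq promoter windows were used on all chromosomes except 18, and some coding genes elsewhere had no such start either. A region 43 bp from an end of Rpl8 had its nearest listed start 83509 bp away, and one 62 bp from Usp18 at 35110 bp. The shares below therefore miss some gene starts. Of 11051 single-call regions, 21.7% were within 1 kb of a listed start and 16.1% within 250 bp. At 2, 3 and 4 calls the share within 250 bp was 22.0%, 22.5% and 15.0%. The median position of the 2399 single-call regions within 1 kb was 3 bp downstream, and 49.15% were upstream. The widths went both ways, with a median of 18 bp upstream in the 274 bp class (57.14% upstream) and 34 bp downstream in the 302 bp class (44.44%). Regions of 2 calls had a median of 1 bp upstream (50.25% upstream) and regions of 4 calls 26 bp upstream (57.25%).

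**Figure D4:**
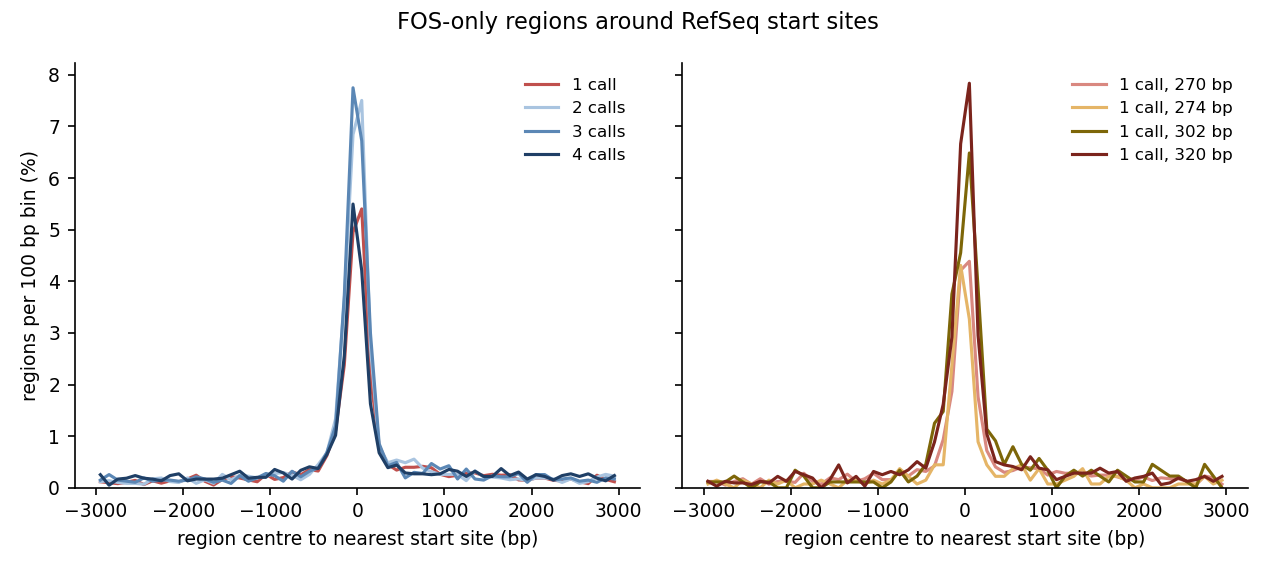
Share of FOS-only regions per 100 bp bin (y axis, %) by the position of their centre relative to the nearest RefSeq start site (x axis, bp, negative is upstream), by number of calls (left) and for single-call regions by width (right). All curves peak at the start site, and among widths the highest bin is 7.84% at 320 bp and 4.39% at 270 bp.

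Promoter windows touched by single-call regions were richer in GC than promoter windows at large, and fewer held the AP-1 letters. A single-call region and no other FOS region overlapped 2227 windows of 2037 genes, and recurrent FOS-only regions overlapped 4371 windows. The median GC content was 62.3% in the first set, 61.7% in the second and 52.7% over all 32851 windows. The AP-1 letters TGANTCA, the same on both strands, were in 4.49% of single-call windows (100, interval 3.67 to 5.44), 5.58% of recurrent windows and 7.81% of all windows. The first 2 shares differed by -1.09 points (interval -2.16 to 0.0477, exact p = 0.061, Fisher's test), which missed the threshold. At 2, 3 and 4 calls the share was 4.57%, 4.58% and 8.22%. Against 4-call windows the difference was -3.73 points (exact p = 1.58e-05). With TGACTCA or TGAGTCA alone, chosen after the data were seen, the main difference was -1.25 points and passed the threshold (exact p = 0.0131).

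Other letters were compared after the data were seen, with adjustment over 5 motifs. The cAMP response element TGACGTCA, also the same on both strands, was in 4.80% of single-call windows, 3.41% of recurrent windows and 1.79% of all (1.40 points between the first 2, interval 0.397 to 2.49, adjusted exact p = 0.00862). GC box letters GGGCGG were in 69.5%, 62.5% and 35.7% (adjusted exact p = 2.32e-08). The CCAAT box was in 38.1%, 30.9% and 37.4% (adjusted exact p = 1.4e-08), so that single-call windows were close to all windows and recurrent windows lower. ETS letters CCGGAA went the other way between FOS sets, with 30.9% of single-call and 40.0% of recurrent windows, against 14.9% of all (-9.12 points between the first 2, adjusted exact p = 1.54e-12). ETS cores are bound by PU.1 and by widely expressed ETS factors alike. Letter matches are descriptions of the windows and were not tied to FOS binding. Windows overlapping a region by any length were counted, and neighbouring windows of a gene can share bases. Promoters without a window, such as that of Rpl8, could not be counted.

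Among genes, single-call regions were spread thinly. Of 21887 coding genes, 6926 (31.6%) were the nearest gene of at least 1 single-call region. Of these, 4352 had 1, 1511 had 2 and 1063 had 3 or more. Of these 6926 genes, 3968 were also the nearest gene of another FOS region, and for 2958 (42.7%) single-call regions were the sole FOS regions. Over all 21887 coding genes, 8118 were the nearest gene of a FOS region other than these single-call regions, and the rest were not. Because 155 regions lay in or equally near several genes, they counted for each.

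The genes with the most single-call regions were long. Rbfox1, a neuronal splicing factor gene 1528 kb long on chromosome 16, had 15, all inside it, with scores from 4.75 to 20.4. Maml3, a Notch coactivator gene of 418 kb, had 13 with scores up to 20.1, beside 16 other FOS regions. Igf1r, the insulin-like growth factor 1 receptor, had 12, and Elmo1, which acts with DOCK proteins in engulfment, had 11 beside 18 others. Sipa1l1 had 11, and Hdac9, Lpp, Nav3, Snx29 and Tnrc6c had 10 each. Per length, Tnrc6c stood apart from the other 9, with 8.20 single-call regions inside the gene per 100 kb, against 0.982 for Rbfox1 and 3.55 for Igf1r. It encodes a protein of microRNA-mediated silencing and had 2 other FOS regions. These genes were chosen for their counts, so none was tested.

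Among genes with no other FOS region, 7 had 5 or more single-call regions and 26 had 4. Sptlc2, which encodes a subunit of the enzyme that starts sphingolipid synthesis, had 7, with a median score of 15.1 and a highest of 32.2. Csmd3, a gene of 1212 kb, had 6 with a median of 6.75. Gnb1, a G protein beta subunit gene, had 5 of 1 width, with scores from 16.1 to 39.9. Tbk1, the kinase that activates IRF3 in nucleic acid sensing, had 5 with scores from 10.6 to 26.4, of which 2 were near a boundary. Orc5 (5, up to 27.3), Dip2c (5, up to 14.5) and Ldlrad3 (5, up to 13) completed the 7. Having no other FOS region means here that none was assigned to the gene as its nearest. A recurrent region still lay 2622 bp from a single-call region of Gnb1 and 4329 bp from one of Tbk1. For the rest of the 7 the closest lay from 35678 bp at Sptlc2 to 367009 bp at Orc5.

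Gene groups were described by 2 counts, set beside the background. The first is the number of genes with a single-call region, against 31.6% of all coding genes. The second is the share of a group's FOS-only regions that had 1 call, against 40.5% over all FOS-only regions near coding genes. The second share follows from the rule that chose the regions, and neither count was tested. For genes with single-call regions alone, the background is 42.7% of all genes with a single-call region (2958 of 6926), also without a test. Genes with a single-call region had a median length of 34.06 kb, against 17.2 kb for all coding genes, and the part of gene length in the counts was not tested.

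The share of FOS-only regions with 1 call was below 40.5% in many groups but not in all. Ribosomal protein genes were lowest (22.45%, 11 of 49, interval 11.8 to 36.6), so a low share was not confined to immune genes. Interferon-stimulated genes and neuron, oligodendrocyte lineage, endothelial and mural, and mast cell and type 2 innate lymphoid markers stood above 40.5%. Their intervals included 40.5%, such as 25.5 to 64.7 for interferon-stimulated genes, except in the mast cell and lymphoid group, which had only 5 regions. Many lower shares had intervals that included 40.5%, such as 24.8 to 42.2 for pattern recognition receptors and 20.5 to 49.9 for proteasome subunits. Homeostatic microglia genes had a single-call region in 19 of 30, and 35 of their 142 FOS-only regions (24.65%, interval 17.8 to 32.6) had 1 call. None of the 30 relied on single-call regions alone. Their highest-scoring ones stood at Spi1 (46.6), at Tmem119 (41.1, 6530 bp outside this microglial marker gene) and in Mef2c (38.0), which encodes a transcription factor of microglia and neurons. AP-1 and related factors had 14 of 21 genes and 29 of 123 regions (23.6%), with a median score of 21.6. Atf4, which encodes a stress response factor, led with 46.9 at 145 bp from a boundary, followed by Junb (45.0) and Fos itself (35.7, 180 bp outside the gene). Junb and Mafk had no other FOS region.

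Cytokine and chemokine genes had 16 of 31 genes and 23 of 91 regions (25.3%). Il1a, an interleukin-1 gene, had a region scoring 47.9 at 20 bp from its boundary, and the chemokine genes Ccl4 and Ccl5 had regions scoring 45.6 and 37.6. Recurrent regions lay 1528, 1326 and 1404 bp from these. NF-kappaB genes had 15 of 21 and 22 of 76 (28.9%), led by Traf2 (32.5), Nfkbia (26.2, 15373 bp outside the gene) and Chuk (24.0). Chuk encodes the kinase IKK-alpha and had no other FOS region. The IL-33 receptor and MYD88 pathway had 14 of 20 and 24 of 78 (30.8%). Irak4, the first kinase recruited to MYD88, had a single-call region scoring 22.7 as its sole FOS region, 67 bp from a boundary.

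Pattern recognition receptors had 23 of 34 genes and 40 of 121 regions (33.1%), with a median score of 11.3, led by Tlr9 (27.5), a DNA sensor, and Nod2 (24.8), a bacterial peptidoglycan sensor. Tlr12, Clec4e and Clec4d, 3 of the 23, had single-call regions alone, against a background of 42.7%. Immediate early genes had 18 of 27 and 37 of 114 (32.5%), with Zfp36 at 51.8, Egr1 at 36.9 and Dusp2 at 31.2. Zfp36 encodes tristetraprolin, which speeds the decay of cytokine mRNAs. Phagocytosis genes had 20 of 31 and 46 of 139 (33.1%), with Lrp1 at 51.0 and Mertk at 37.6, both receptors for engulfment. Activated microglia genes had 18 of 25 and 33 of 96 (34.4%), with a median score of 9.5. They were led by Ctsd at 41.3, 11605 bp outside the gene, and Fth1 at 40.3, 2046 bp outside. Apoe, Spp1 and Igf1, 3 of the 18, had single-call regions alone, a share below that background. MAP kinase genes had 11 of 21 and 29 of 87 (33.3%). Interferon-stimulated genes had 9 of 22 and 12 of 27 (44.4%), with a median score of 8.67. For Ifit2, Irf7, Usp18, Rsad2 and Cmpk2, 5 of the 9, these were the sole FOS regions, against the same 42.7%.

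In 3 of 4 housekeeping groups most of the few single-call regions lay within 1 kb of a gene boundary, against 23.1% of all single-call and 25.2% of all recurrent regions. Proteasome subunit genes had one in 13 of 30. For 10 of these 13 it was the sole kind, against 42.7% of all genes with a single-call region. Of their 15 single-call regions, 8 were within 1 kb of a boundary, and the median score was 26.6, against 12.8 for all single-call regions. Psmd4 led with 42.0 at 18 bp from a boundary, with the nearest recurrent region 67779 bp away. Polymerase, splicing and translation genes had 7 of 31, with 6 of 8 regions near a boundary and a median of 27.0. Ribosomal protein genes had 10 of 40, with 7 of 11 near a boundary and a median of 20.8, led by Rps16 (36.9, 9 bp) and Rpl8 (32.2, 43 bp). Respiratory chain genes had 9 of 30, with 3 of 10 near a boundary and a lower median of 8.59, although Ndufv1, a complex I subunit gene, reached 40.1 at 33 bp from a boundary. Other groups varied, with 5 of 12 near a boundary for interferon-stimulated genes, 9 of 29 for AP-1 and related factors and 1 of 35 for homeostatic microglia genes. Recurrent regions near a boundary were not counted for the same groups. Whether these boundary counts are particular to single-call regions was therefore not tested, and neither was the part of gene length in them.

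Markers of other cells had single-call regions in 3 to 8 genes a group. In 7 of 8 groups their median score was below the 12.8 of all members, as it also was for activated microglia, pattern recognition receptor, interferon-stimulated and respiratory chain genes. Neuron markers had one in 5 of 30 genes, with a median score of 5.44 over 6 regions. The highest of them was at Vamp2, a synaptic vesicle gene, at 40.6 and 1 bp from a boundary. Oligodendrocyte lineage markers had 4 of 17, and 9 of their 15 FOS-only regions had 1 call (interval 32.3% to 83.7%), 6 of them at Mbp, with none near a boundary. Mast cell and type 2 innate lymphoid markers had 4 of 12, and all 5 of their FOS-only regions were single-call, with a median of 7.43, at Hdc, Il13, Il5 and Rora. Counts were 5 of 16 for astrocytes (median score 9.09), 8 of 18 for endothelial and mural cells (11.8), 3 of 13 for border-associated macrophages (10.8), 4 of 18 for monocytes and neutrophils (14.7) and 3 of 16 for lymphocytes (6.61). The part of other cells in the sort was not tested.

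**Figure D5:**
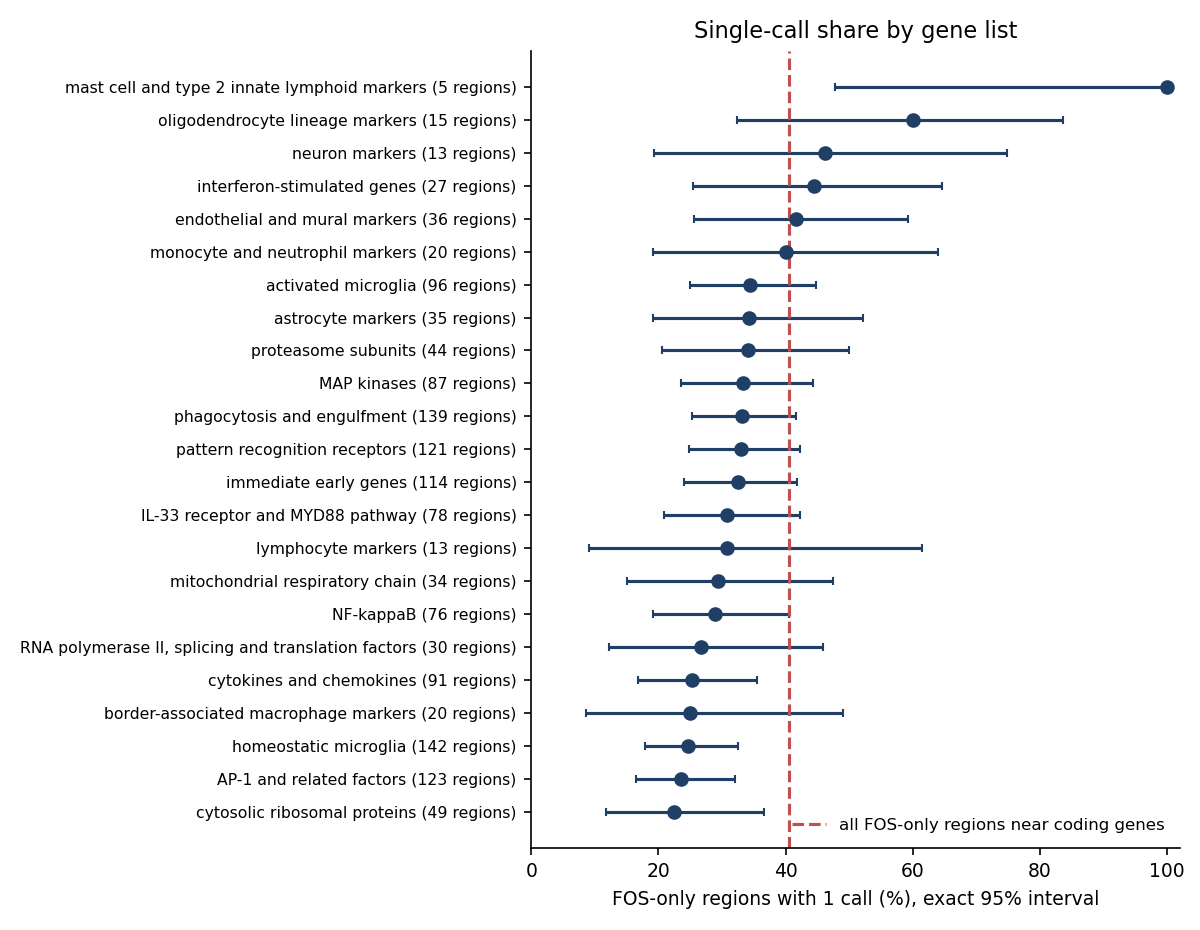
Share of each group's FOS-only regions that had 1 call (x axis, %; points, with exact 95% intervals as bars), with the number of FOS-only regions in brackets. The dashed line is the 40.5% of all FOS-only regions near coding genes. Ribosomal protein genes are lowest at 22.45%, AP-1, homeostatic microglia, border-associated macrophage and cytokine genes lie at 23.6% to 25.3%, and groups of other cells have few regions and wide intervals.

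The 3 members nearest to the limit lay 99829 bp from Avpr1a (score 10.6), 99817 bp from Ubl3 (9.87) and 99812 bp from Reep3 (15.1). The 3 nearest outside it lay 100062 bp from Ttc29 (7.02), 100246 bp from Ifngr1 (10.8) and 100258 bp from Ubl3 (8.71). A recurrent region lay 9413 to 18578 bp from those inside, and 395566, 14874 and 19019 bp from those outside.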

How the data were processed

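The deposited table lists regions that the authors merged from 2 peak lists with HOMER's mergePeaks on mm10, per the file headers. Bowtie2 and HOMER are named, without versions, per the submitters' processing notes. Neither the peak calling settings nor the use of inputs is given in the sources. The deposited score is the column headed Stat, per the file headers, and its scale is not stated. It was used as deposited for FOS-only regions, and for neighbours shared with the IL-33 list only distances are given. The table has 0 columns per library and 0 of samples outside the series.

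Gene bodies (21887 coding genes on 21 chromosomes) and promoter windows came from RefSeq GRCm38.p6. The promoter windows did not cover every coding gene. Distances run from region centres, and gene boundaries are either end of a gene body. Shares have exact Clopper-Pearson 95% intervals, and differences have Newcombe 95% intervals. Shares were compared with two-sided Fisher's exact tests and Benjamini-Hochberg adjustment at 0.05 (Python 3.11.15, scipy 1.17.1, pandas 2.3.3), tested on simulated data. Tests by number of calls were adjusted over the same 4 measures. The members, the 23 gene lists and the tests were chosen with earlier results of these data known. Of 558 list entries, 554 matched a gene and 7 genes stood on 2 or more lists.

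Named genes follow a fixed rule. It takes the 5 highest scores of each width, the 10 genes with the most single-call regions, and the 10 with the most among genes with no other FOS region. It also takes up to 3 leading genes of each list, the regions nearest the 100 kb limit and up to 6 promoter windows lying wholly in a region. The last 3 of the second set of 10, drawn from 26 genes tied at 4 regions, are not named. Genes whose sole FOS regions had 1 call, and the stretches with AP-1 or cAMP response element letters, were added after their values were seen. Alternatives varied the comparison group, distances, score, widths, chromosomes, shared regions and motif letters.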

Additional observations from a re-analysis of the deposited data

How the results depend on the processing

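No paired analysis was possible because the table holds no value per mouse, and no mouse could be left out for the same reason. Differences below are single-call minus comparison regions, in percentage points. The lower share with a recurrent FOS region within 10 kb kept its direction and call in 12 of 12 alternatives (-24.7 to -1.98), and the lower share with an IL-33 list region in 13 of 13 (-10.9 to -1.69). The first of these measures uses call number for both groups and neighbours, so it describes how call numbers lie together. The higher score near boundaries kept its direction in 10 of 10 (6.5 to 8.2). The boundary share kept its call in 10 of 14 (-5.18 to -1.10). It turned against 4-call regions (3.68), with members at or above the median score of their width (9.76) and without the 270 bp width (1.57), and it lost the call with shared regions included (-0.947, adjusted exact p = 0.0796). The share inside gene bodies, not called in the main test, was called against 4-call regions (4.54), with a 10 kb gene limit (1.59), at or above the median score (2.98) and without the 274 bp width (1.24), and turned against 2-call regions (-2.52). The AP-1 difference in promoters was called against 4-call regions (-3.73), at or above the median score (-1.34), without the 270 bp width (-1.71) and with TGACTCA or the reverse strand form TGAGTCA alone (-1.25). Genes with a single-call region, 6926 in the main count, numbered 4247 at or above the median score and 4306 without the 270 bp width. The score setting filtered single-call regions alone, and among them the boundary and neighbour shares rose with score. Differences in these shares under that setting therefore follow in part from the filter. The causes of the other changes were not tested. Alternatives using start sites, distance from recurrent regions, window overlap and stricter letters, and those for score and gene counts, were chosen after seeing the data. Depth per library is unknown and limits every statement on absence of a call.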

Other observations

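Single-call regions made up a similar part of FOS-only regions on most chromosomes, from 37.7% on chromosome 7 to 45.3% on chromosome 18 among those with over 100 regions, and 40.05% on X. Coding genes with single-call regions alone had a median length of 22.4 kb, and those with another FOS region 28.05 kb. Of 4-call FOS-only regions, 87 (1.44%) scored below the median of single-call regions.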
